A study of Rattus norvegicus with 56 samples.

Results

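Serotonin receptor genes were followed in the dorsal striatum of 56 male rats, 1 array per rat, with 9 of 14217 annotated genes (Htr1a, Htr1b, Htr1d, Htr2a, Htr2c, Htr4, Htr5a, Htr6 and Htr7) represented by 16 of the 31042 probe sets that were not controls. Every probe set whose annotated symbol equals 1 of these names was taken, whatever its signal. The rats were Sprague Dawley (Crl:OFA), and each carried an AAV injected at the nigra on both sides. In lesioned rats the vector made alpha-synuclein, which causes nigral dopamine neurons to be lost, and in sham rats the same vector made GFP. So the sham rats also carried a virus and a foreign protein, and no uninjected rat was measured. From 5 weeks after the injection, rats received L-dopa (its methyl ester, 50 mg/kg) each day with benserazide (an inhibitor of peripheral decarboxylase) or else saline, for 3 weeks. They were then conditioned in a place preference box in 40 min sessions with pramipexole (2 mg/kg), an agonist of D2 and D3 dopamine receptors, or with saline, and were killed after the final preference test.

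The 8 groups held 7 rats each. They were lesioned rats given both drugs, L-dopa alone, pramipexole alone or saline only, followed by sham rats given both drugs, L-dopa alone, pramipexole alone or saline only. Samples 1 to 37 hold all 28 lesioned rats, the 7 sham rats given both drugs and 2 of the sham rats given L-dopa alone. Samples 38 to 56 hold the other 5 sham rats given L-dopa alone and all sham rats given pramipexole alone or saline only. The labels name no batch. Drug comparisons were made inside each of these number ranges, and the lesion was compared inside samples 1 to 37 in rats given both drugs, 7 against 7. Rats given L-dopa alone would allow 7 against 2 there, which was not tested. In rats given pramipexole alone or saline only, the number range and the lesion cannot be told apart. The total RNA came from pieces of tissue, so fewer cells of a type and less RNA per cell cannot be told apart in any value below.

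Serotonin reaches the striatum through axons of the raphe nuclei, and its receptors there sit on the projection neurons, interneurons, incoming axons and glia. Apart from the ion channel family, all serotonin receptors couple to G proteins. Htr1 and Htr5 receptors act through Gi/o and lower cAMP, Htr2 receptors act through Gq and phospholipase C, and Htr4, Htr6 and Htr7 receptors act through Gs and raise cAMP. In parkinsonian animals the serotonin axons can also turn L-dopa into dopamine and release it.

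RefSeq promoter windows (GRCr8, 250 bases before to 50 after the start) were at hand for 6 of the 9 genes: Htr1b, Htr1d, Htr2c, Htr5a, Htr6 and Htr7. The 250 upstream bases of Htr2c and Htr1d are shown because the signals of these genes were correlated across rats, as described below. Both lie on the forward strand and are written 5′ to 3′, and capitals mark matches to the motifs searched on both strands: TGACG, the core of a cAMP response element, the full TGACGTCA, which holds that core, the GC box GGGCGG, the CCAAT box and the TATA box TATAAA.
Htr2c, chrX:115452940-115453189: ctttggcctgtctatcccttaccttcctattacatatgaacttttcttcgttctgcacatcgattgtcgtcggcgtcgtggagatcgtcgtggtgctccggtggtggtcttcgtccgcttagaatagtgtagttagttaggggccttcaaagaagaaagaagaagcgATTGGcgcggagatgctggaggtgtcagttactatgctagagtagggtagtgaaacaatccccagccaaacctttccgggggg
Htr1d, chr5:153939485-153939734: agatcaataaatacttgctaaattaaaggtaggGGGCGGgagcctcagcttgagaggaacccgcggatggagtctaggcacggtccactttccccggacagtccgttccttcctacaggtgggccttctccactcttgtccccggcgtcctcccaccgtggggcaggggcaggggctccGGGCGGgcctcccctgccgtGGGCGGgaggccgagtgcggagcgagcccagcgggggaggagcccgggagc
The Htr2c window held 1 CCAAT box, read on the reverse strand with its first base 83 bases before the start, and none of the other motifs. The Htr1d window held 3 GC boxes, the first bases of which lie 217, 71 and 51 bases before the start, and no CCAAT box. The pair therefore shared none of the motifs searched in these windows. Of 33469 rat promoter windows of this length, 37.5% hold a CCAAT box, 33.1% a GC box, 21.2% the core TGACG, 1.83% the full TGACGTCA and 14.2% TATAAA. Htr5a held 1 TGACG and 1 GC box, Htr7 held 1 TGACG, Htr1b held 2 CCAAT boxes, and Htr6 held none of the motifs. A match is a description of these letters and not a binding site.

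The tissue was checked against markers. All 6 markers shared by striatal medium spiny neurons were between the 88.4th and 99.1st percentile of signal over all probe sets, and Drd1 (98.32th), Drd2 (94.83th) and Penk (99.8th) were high as well. Markers of raphe serotonin neurons were low: the serotonin transporter Slc6a4 was at the 10.36th percentile and the transcription factor Fev at the 25.29th. Of the cerebral cortex markers, Tbr1 was the lowest, with a mean log2 signal of 1.45 at the 4.781th percentile, which is below Slc6a4. The highest were Sv2b (99.8th), Nptx1 (97.97th) and Lamp5 (97.43th). The summed unlogged signal of the 12 measured cortex markers was 5505 or more in every group, a sum in which the genes of highest signal weigh most. Choroid plexus RNA, in which Htr2c is abundant, was high in rat 7, a lesioned rat given both drugs with a log2 signal of 12.59 for the plexus marker Ttr, and in rat 27, a lesioned rat given saline only with 10.88. Arrays correlated with each other at 0.937 to 0.958.

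Signals below are log2 MAS5 signals as deposited, so a difference of 1 is a doubling, and each probe set has its own affinity, so that signals do not rank the receptors against each other. Of the 16 member probe sets, 5 lay above the 40th percentile of mean signal and 2 above the 60th. These 2 were the Htr2c probe set 1376980_at, with a mean of 10.55 at the 97.85th percentile, and the Htr4 probe set 1391263_at, with 6.48 at the 61.23th. The other 3 of the 5 were Htr2a 1369125_at (5.72), Htr1d 1398298_at (5.64) and Htr2c 1369860_a_at (5.19). Htr1a, Htr1b, Htr5a, Htr6 and Htr7 had no probe set above the 40th percentile. The weakest were Htr2a 1369894_at (0.40) and the 2 Htr7 probe sets 1371290_a_at (0.96) and 1387466_a_at (1.12), and the SD within groups of these weak probe sets was 1.23 to 1.68.

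**Figure D1:**
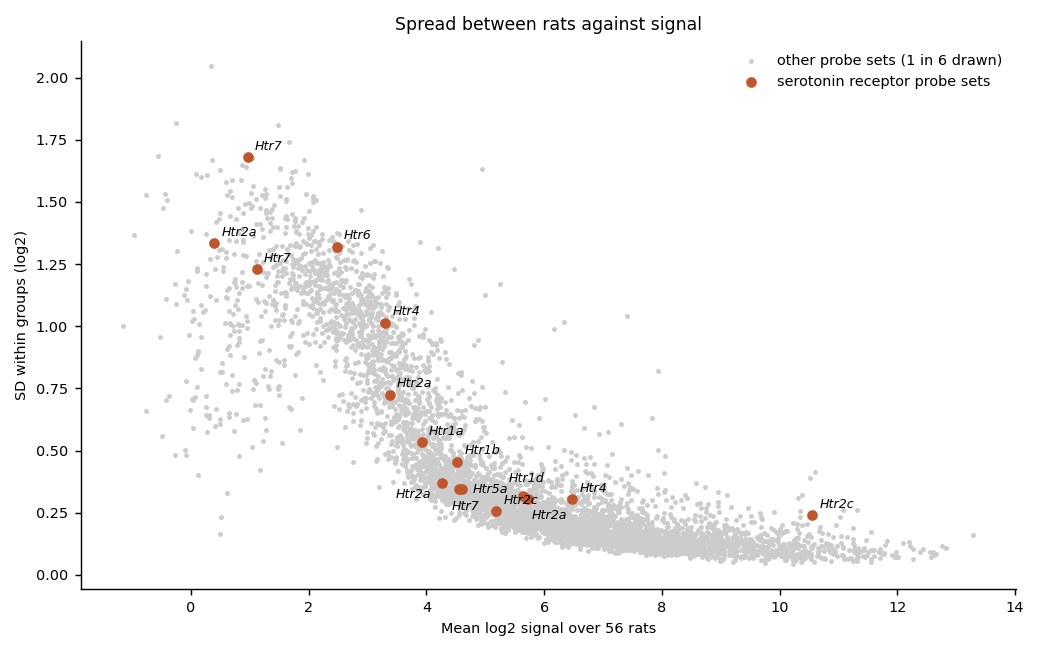
SD between rats within groups (y axis, log2) against mean log2 signal over 56 rats (x axis). Each orange point is 1 of the 16 serotonin receptor probe sets and grey points are 1 in 6 of the other probe sets. The Htr2c probe set with a mean of 10.55 stands at the right with an SD of 0.24, and the weakest Htr2a, Htr6 and Htr7 probe sets stand at the upper left with SDs above 1.2.

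Where a gene had several probe sets, they often did not move together. The 2 Htr2c probe sets correlated across the 56 rats with r = 0.53 in signal and 0.60 in deviation from group means. Among the 4 Htr2a probe sets r ran between -0.23 and 0.11, and the Htr4 pair had r = -0.08. The 3 Htr7 probe sets had r between -0.10 and 0.08. The values of Htr2a, Htr4 and Htr7 given next are therefore those of their strongest probe set (1369125_at, 1391263_at and 1369119_a_at). The weaker ones did not follow these from rat to rat. The weaker Htr4 probe set 1369533_a_at still had its highest mean in lesioned rats given saline only (3.63 ± 0.38, SD). Its lowest mean was in sham rats given both drugs (2.59 ± 0.94).

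Among the Gi/o receptors, Htr1a, which acts on raphe neurons as an autoreceptor and on cortical and hippocampal neurons, averaged 3.92 ± 0.52 over all rats (SD, n = 56). Its means in lesioned rats were 3.78 ± 0.61 with both drugs, 4.12 ± 0.31 with L-dopa alone, 3.68 ± 0.71 with pramipexole alone and 4.06 ± 0.46 with saline only (SD, n = 7 each). In sham rats they were 3.84 ± 0.65, 3.92 ± 0.39, 4.06 ± 0.47 and 3.88 ± 0.55 in the same order of treatments. All 8 groups overlapped, and the span of their means, 0.44, was smaller than the SD within groups, 0.53.

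Htr1b encodes a receptor of axon terminals, including those that medium spiny neurons send to the nigra and pallidum. Its means in lesioned rats were 4.41 ± 0.26 with both drugs, 4.30 ± 0.56 with L-dopa alone, 4.37 ± 0.55 with pramipexole alone and 4.84 ± 0.40 with saline only (SD, n = 7 each). In sham rats they were 4.66 ± 0.43, 4.60 ± 0.32, 4.26 ± 0.63 and 4.77 ± 0.30 in the same order of treatments. The saline-only group was the highest of its 4 in lesioned rats and also in sham rats. For Htr1d, a related terminal receptor, lesioned rats averaged 5.70 ± 0.31 with both drugs, 5.37 ± 0.34 with L-dopa alone, 5.64 ± 0.41 with pramipexole alone and 5.76 ± 0.39 with saline only. Sham rats averaged 5.66 ± 0.27, 5.67 ± 0.19, 5.63 ± 0.32 and 5.66 ± 0.19 in the same order of treatments. The lowest Htr1d mean was in lesioned rats given L-dopa alone and the highest in lesioned rats given saline only.

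Htr5a, a Gi/o receptor of neurons, averaged 4.35 ± 0.26 with both drugs, 4.49 ± 0.21 with L-dopa alone, 4.72 ± 0.27 with pramipexole alone and 4.33 ± 0.28 with saline only in lesioned rats (SD, n = 7 each). Sham rats averaged 4.48 ± 0.28, 4.65 ± 0.60, 5.08 ± 0.36 and 4.68 ± 0.37 in the same order of treatments. Within either number range, the group given pramipexole alone was the highest. Sorted by mean, sham rats given pramipexole alone exceeded the next group, lesioned rats given pramipexole alone, by 0.37, just more than the SD within groups (0.35). This was the only gap between neighbouring groups that exceeded the within-group SD in any of the 16 probe sets, and it lies between groups of different number ranges. In sham rats given L-dopa alone, the mean of Htr5a was 4.36 ± 0.76 in the 2 rats of samples 1 to 37 and 4.76 ± 0.58 in the 5 of samples 38 to 56.

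Of the Gq receptors, Htr2a is abundant on cortical pyramidal neurons and is the main target of hallucinogens. Its means in lesioned rats were 5.51 ± 0.25 with both drugs, 5.81 ± 0.24 with L-dopa alone, 5.74 ± 0.40 with pramipexole alone and 6.04 ± 0.37 with saline only (SD, n = 7 each). In sham rats they were 5.67 ± 0.30, 5.74 ± 0.25, 5.59 ± 0.32 and 5.65 ± 0.27 in the same order of treatments. The highest group was lesioned rats given saline only and the lowest lesioned rats given both drugs. Htr2c, which medium spiny neurons and the choroid plexus make, averaged 10.50 ± 0.27 with both drugs, 10.51 ± 0.36 with L-dopa alone, 10.61 ± 0.21 with pramipexole alone and 10.69 ± 0.25 with saline only in lesioned rats. It averaged 10.55 ± 0.20, 10.47 ± 0.22, 10.59 ± 0.10 and 10.50 ± 0.21 in the same order of treatments in sham rats. The span of the 8 Htr2c means, 0.22, was within the SD between rats of 1 group, 0.24. The lowest rats of the 8 groups lay between 10.05 and 10.38 and the highest between 10.69 and 10.86.

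Among the Gs receptors, Htr4, which raises cAMP in striatal projection neurons, averaged 6.41 ± 0.20 with both drugs, 6.32 ± 0.18 with L-dopa alone, 6.29 ± 0.48 with pramipexole alone and 6.70 ± 0.30 with saline only in lesioned rats (SD, n = 7 each). In sham rats it averaged 6.49 ± 0.18, 6.54 ± 0.26, 6.50 ± 0.45 and 6.58 ± 0.22 in the same order of treatments. Lesioned rats given saline only were the highest group, and the other 3 lesioned groups were the 3 lowest. Htr6, a receptor with known striatal expression, averaged 2.47 ± 1.31 over all 56 rats and ran from -0.25 to 4.58. Its means were 2.87 ± 1.10 with both drugs, 2.50 ± 1.47 with L-dopa alone, 1.99 ± 1.57 with pramipexole alone and 3.14 ± 1.07 with saline only in lesioned rats. In sham rats they were 2.52 ± 1.42, 2.65 ± 1.03, 1.63 ± 1.48 and 2.50 ± 1.28 in the same order of treatments, and no gap between neighbouring means reached the within-group SD of 1.32. Htr7 averaged 4.68 ± 0.24 with both drugs, 4.38 ± 0.33 with L-dopa alone, 4.52 ± 0.38 with pramipexole alone and 4.57 ± 0.34 with saline only in lesioned rats. In sham rats Htr7 averaged 4.68 ± 0.50, 4.84 ± 0.25, 4.35 ± 0.36 and 4.47 ± 0.31 in the same order of treatments.

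**Figure D2:**
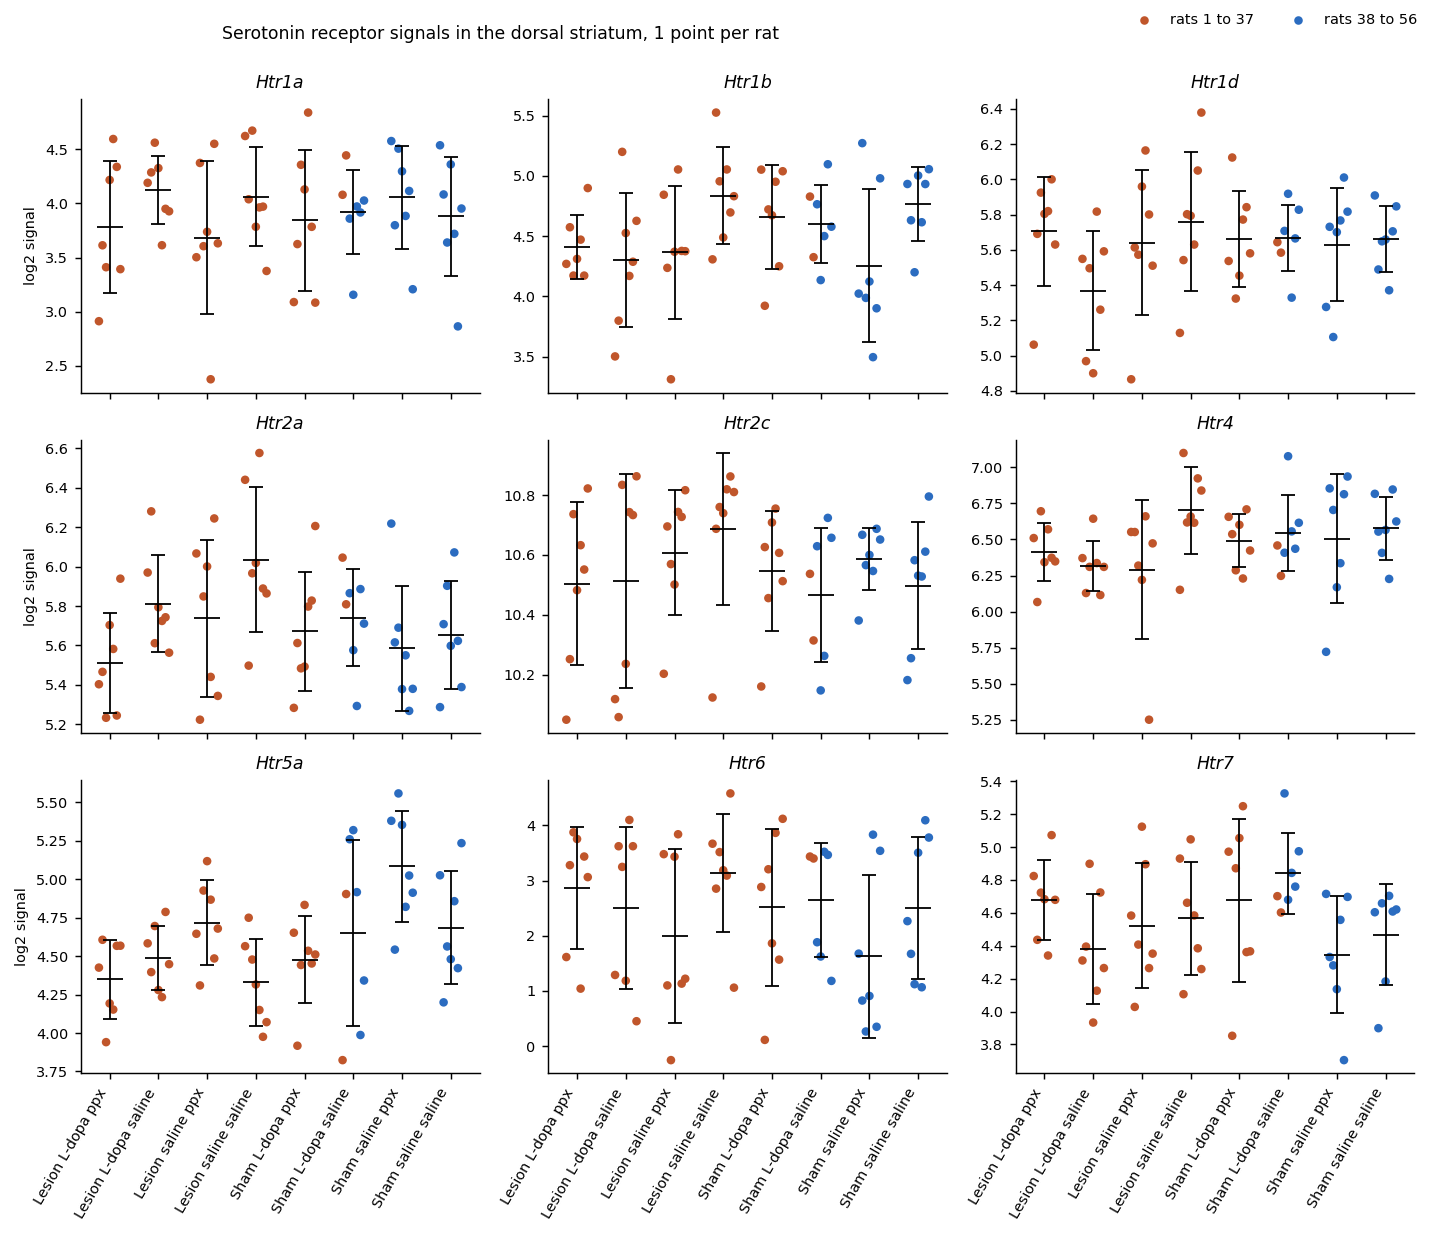
Log2 signal (y axis, a different range per panel) of the strongest probe set of each of the 9 genes in the 8 groups, 1 point per rat, orange for samples 1 to 37 and blue for samples 38 to 56; horizontal bars are group means and error bars 1 SD. The groups overlap in every panel, and for Htr4 the lesioned rats given saline only have the highest mean (6.70).

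The design sets pramipexole, L-dopa and the nigral lesion against their controls in rats conditioned to a place. For the serotonin receptors, limma called 0 of 16 probe sets in each of the 13 comparisons at a Benjamini-Hochberg adjusted p under 0.05. The smallest adjusted p of a receptor probe set was 0.403. The background was nearly as empty: 0% of all probe sets were called in 11 comparisons, 0.00322% for L-dopa over all lesioned rats and 0.00644% for pramipexole in sham rats given L-dopa. At an unadjusted p under 0.05, 18 of the 208 receptor tests passed, where the share of all probe sets that passed was 3.67% to 9.89% in the 13 comparisons. The 208 tests share rats and are not independent.

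L-dopa in lesioned rats that had no pramipexole gave 3 of 16 probe sets an unadjusted p under 0.05, where 9.89% of all probe sets had one. All 3 means were lower with L-dopa. The lowest, median and highest Htr4 signals were 6.11, 6.31 and 6.64 with L-dopa and 6.15, 6.66 and 7.10 with saline. All 7 L-dopa rats lay below the saline mean, although the groups overlapped, and the difference was -0.38 ± 0.16 (SE, adjusted p = 0.403). Htr1d had 4.90, 5.50 and 5.82 with L-dopa and 5.13, 5.79 and 6.38 with saline, a difference of -0.39 ± 0.17 (SE, adjusted p = 0.412) with 6 of 7 L-dopa rats below the saline mean. Htr1b had 3.50, 4.29 and 5.20 with L-dopa and 4.31, 4.83 and 5.53 with saline, a difference of -0.54 ± 0.24 (SE, adjusted p = 0.442), again with 6 of 7 below. The median difference over the 16 probe sets was -0.18, against 0.02 over all probe sets tested. It was 0.01 for L-dopa in lesioned rats given pramipexole and 0.03 in sham rats without pramipexole. Only 5 of the 16 lay above the 40th percentile of signal. In lesioned rats without pramipexole 6 of the 16 differences were positive, and the median absolute difference was 0.29, against 0.12 over all probe sets.

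Cerebral cortex markers also differed here. Of 12 measured markers 10 had higher means with L-dopa, 0 were called, 5 had an unadjusted p under 0.05, and their median difference was 0.47. Their summed unlogged signal ran from 7105 to 11330 in lesioned rats given L-dopa alone and from 5505 to 10700 in lesioned rats given saline only. With the mean of the cortex markers as a covariate, the L-dopa difference became -0.22 for Htr4, -0.21 for Htr1d and -0.31 for Htr1b, while that of Htr2a became -0.40, against -0.22 without it. Their part in the result was not tested beyond this fit.

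Markers of other cells and RNA quality also differed here, with 0 markers called. Means were lower with L-dopa for 5 of 5 markers of D2 medium spiny neurons (median difference -0.22), 6 of 8 of D1 medium spiny neurons (-0.19), 3 of 4 of cholinergic interneurons (-0.29) and 4 of 4 of raphe serotonin neurons (-0.37). Summed unlogged signals of the cholinergic list were 256.6 to 416.8 in lesioned rats given L-dopa alone and 329.2 to 499.7 in lesioned rats given saline only. The gap between 3′ and 5′ probe sets of housekeeping controls, which widens in degraded RNA, was 0.887 ± 0.096 with L-dopa and 0.807 ± 0.036 with saline (log2, SD, n = 7 each). With this gap as a covariate the difference was -0.46 for Htr4, -0.39 for Htr1d and -0.53 for Htr1b. The part of the other markers in the result was not tested.

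Pramipexole in lesioned rats without L-dopa gave 2 of 16 probe sets an unadjusted p under 0.05, against 6.45% of all probe sets. Htr4 had lowest, median and highest signals of 5.25, 6.47 and 6.66 with pramipexole and 6.15, 6.66 and 7.10 with saline. The difference was -0.41 ± 0.16 (SE, adjusted p = 0.714), all 7 pramipexole rats lay below the saline mean, and rat 20 set the lowest value. Leaving out 1 rat at a time gave Htr4 differences from -0.50 to -0.24, and that of -0.24 was without rat 20. Htr5a had 4.31, 4.68 and 5.12 with pramipexole and 3.98, 4.32 and 4.75 with saline, a difference of 0.39 ± 0.18 (SE, adjusted p = 0.763). Cortex markers had higher means in the pramipexole rats for 12 of 12 genes, with a median difference of 0.28, 0 called, and a summed signal of 6309 to 10980 in lesioned rats given pramipexole alone. With the cortex covariate the Htr4 difference became -0.29.

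In lesioned rats given L-dopa, 0 of 16 probe sets had an unadjusted p under 0.05 for pramipexole, against 5.58% of all probe sets, and Htr4 averaged 6.41 ± 0.20 with pramipexole and 6.32 ± 0.18 without it. The Htr4 difference was 0.10 ± 0.16 (SE), with a 95% interval of -0.23 to 0.42. The interaction of both drugs in lesioned rats was 0.51 ± 0.23 for Htr4 (SE, adjusted p = 0.802; 0.34 without rat 20) and -0.53 ± 0.26 for Htr5a (SE, adjusted p = 0.803), and 2 of 16 probe sets had an unadjusted p under 0.05, against 6.14%. L-dopa in lesioned rats given pramipexole gave 2 of 16, against 5.1%. One was Htr5a, with 3.94, 4.43 and 4.61 with L-dopa and 4.31, 4.68 and 5.12 without it, a difference of -0.37 ± 0.18 (SE, adjusted p = 0.967). The other was the weak Htr7 probe set 1387466_a_at, at -1.50 ± 0.65. Choroid plexus markers had higher means with L-dopa here for 8 of 8 genes (median difference 0.46) and microglia markers for 5 of 5 (0.48), with 0 called. The summed choroid plexus signal ran from 176.2 to 6997 in lesioned rats given both drugs and from 161.4 to 335 in lesioned rats given pramipexole alone, and the gap between 3′ and 5′ control probe sets was 0.883 ± 0.073 and 0.803 ± 0.080 in these groups (log2, SD, n = 7 each). With the choroid plexus covariate the Htr5a difference was -0.45, and with the gap as covariate -0.40. For the interaction, 7 of 8 choroid plexus markers were positive (median 0.57) and 11 of 12 cortex markers negative (-0.48), and with the cortex covariate it was 0.34 for Htr4 and -0.47 for Htr5a. The part of the microglia markers was not tested.

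Over all 28 lesioned rats, pramipexole gave 1 of 16 probe sets an unadjusted p under 0.05, against 5.94% of all probe sets. That one was Htr2a, with lowest, median and highest signals of 5.22, 5.52 and 6.24 in 14 pramipexole rats and 5.50, 5.88 and 6.58 in 14 rats conditioned with saline. The Htr2a difference was -0.30 ± 0.11 (SE, adjusted p = 0.754), and 10 of 14 pramipexole rats lay below the mean of the others. It was -0.30 ± 0.16 with L-dopa and -0.30 ± 0.16 without, and the interaction was -0.0044 ± 0.23 (SE, adjusted p = 0.999). With the cortex covariate it was -0.34 (adjusted p = 0.543). The corresponding L-dopa difference of Htr2a was -0.23 ± 0.11 (SE, adjusted p = 0.598), with 11 of 14 L-dopa rats below. The weaker Htr2a probe sets 1369124_at, 1387752_s_at and 1369894_at differed from this. Without L-dopa all had higher means with pramipexole: 4.31 against 4.03, 3.57 against 2.96 and 0.24 against -0.31. With L-dopa 1369124_at was higher, at 4.47 against 4.33, and the others were lower, at 3.01 against 3.02 and 0.51 against 0.92.

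L-dopa over all lesioned rats gave 1 of 16, against 8.47% of all probe sets. It was Htr7 1387466_a_at, a probe set at the 3.392th percentile of signal, whose lowest, median and highest values were -1.08, 0.47 and 3.10 with L-dopa and -0.36, 2.38 and 3.80 without. Its difference of -1.30 ± 0.46 (SE, adjusted p = 0.435) was the one of smallest unadjusted p among all receptor tests. The stronger Htr7 probe set had -0.02 ± 0.13 (SE, adjusted p = 0.987) in this comparison.

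Htr2c, the receptor with the strongest probe set, had no unadjusted p under 0.05 for that probe set in any of the 13 comparisons. The pramipexole difference over all lesioned rats was -0.04 ± 0.09 (SE), with a 95% interval of -0.23 to 0.14. For L-dopa over all lesioned rats it was -0.14 ± 0.09, with an interval of -0.32 to 0.04. In sham rats without L-dopa, pramipexole gave 0.09 ± 0.13, with an interval of -0.17 to 0.35. These intervals do not show that Htr2c was the same in all groups.

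In sham rats without L-dopa, pramipexole gave 3 of 16 probe sets an unadjusted p under 0.05, against 5.77% of all probe sets. Htr1b had lowest, median and highest signals of 3.50, 4.02 and 5.27 with pramipexole and 4.20, 4.93 and 5.06 with saline, and the difference was -0.51 ± 0.24 (SE, adjusted p = 0.846). Htr5a had 4.54, 5.02 and 5.56 with pramipexole and 4.20, 4.56 and 5.23 with saline, a difference of 0.40 ± 0.18 (SE, adjusted p = 0.845). The weaker Htr2c probe set 1369860_a_at had 5.02, 5.42 and 5.64 with pramipexole and 4.69, 5.14 and 5.27 with saline, a difference of 0.34 ± 0.14 (SE, adjusted p = 0.774). For Htr1b 5 of 7 and for Htr5a and Htr2c 6 of 7 pramipexole rats lay beyond the saline mean. Of the 12 cortex markers 7 had higher means with pramipexole here, at a median difference of 0.003. Astrocyte markers had lower means with pramipexole for 5 of 5 genes (median -0.08) and oligodendrocyte markers for 4 of 4 (-0.12), with 0 called. The summed astrocyte signal ran from 10810 to 13060 with pramipexole and from 11800 to 13870 with saline. The gap between 3′ and 5′ control probe sets was 0.931 ± 0.096 with pramipexole and 1.007 ± 0.131 with saline (log2, SD, n = 7 each). With this gap as covariate the differences were -0.52 for Htr1b, 0.44 for Htr5a and 0.30 for the weaker Htr2c probe set. The part of the glial markers was not tested.

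The pramipexole difference of lesioned rats minus that of sham rats, both without L-dopa, gave 0 of 16 probe sets an unadjusted p under 0.05, against 5.97% of all probe sets. Over the strongest probe set of each of the 9 genes it ran from -0.55 ± 0.40 for Htr1a to 0.08 ± 0.26 for Htr7 (SE, n = 7 each). For Htr4 it was -0.34 ± 0.23 (SE, adjusted p = 0.894), and for Htr5a -0.01 ± 0.26 (SE, adjusted p = 0.997), with 95% intervals of -0.80 to 0.12 and -0.53 to 0.51. These values do not show that the pramipexole difference was alike in lesioned and sham rats.

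In sham rats without pramipexole, L-dopa gave 2 of 16 probe sets an unadjusted p under 0.05, both of Htr7, against 6.27% of all probe sets. Htr7 1369119_a_at had lowest, median and highest signals of 4.68, 4.84 and 5.33 in 5 L-dopa rats and 3.90, 4.61 and 4.70 in 7 saline rats. All 5 L-dopa rats lay above the saline mean, and the difference was 0.45 ± 0.20 (SE, adjusted p = 0.759). In lesioned rats the same contrast was -0.19 ± 0.18 (SE, adjusted p = 0.785). The L-dopa effect of lesioned rats minus that of sham rats was -0.64 ± 0.27 for this probe set (adjusted p = 0.869). Here 2 of 16 probe sets had an unadjusted p under 0.05, against 5.54%. The other in either comparison was the weak Htr7 probe set 1387466_a_at, at 1.44 ± 0.71 for L-dopa in sham rats and -2.54 ± 0.96 for lesioned minus sham (SE).

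Pramipexole in sham rats given L-dopa could be tested on 7 rats against 2, and 0 of 16 receptor probe sets had an unadjusted p under 0.05, against 3.67% of all probe sets. The lesion, tested in rats given both drugs, likewise gave 0 of 16, against 6.2%. In the lesion comparison Htr2c differed by -0.04 ± 0.13, Htr4 by -0.08 ± 0.16 and Htr2a by -0.16 ± 0.16 (SE, n = 7 each). The 95% interval was -0.30 to 0.21 for Htr2c and -0.40 to 0.25 for Htr4.

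**Figure D3:**
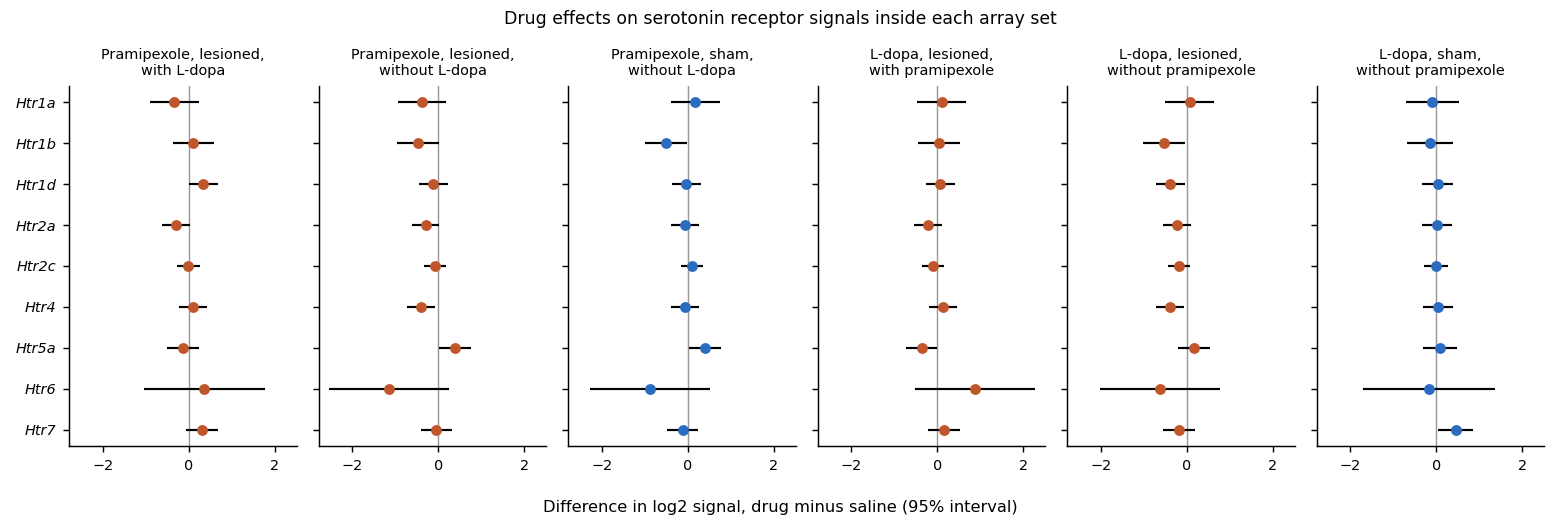
Difference in log2 signal, drug minus saline (x axis), with its 95% interval for the strongest probe set of each gene (rows) in 6 drug comparisons (panels), orange for samples 1 to 37 and blue for samples 38 to 56. Intervals that leave out 0 include those of Htr4 and Htr1b for L-dopa in lesioned rats without pramipexole (-0.38 and -0.54), and none of the differences was called after adjustment.

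Genes that work with the receptors were read from 6 lists, and 0 genes of any list were called in any comparison. Of 5 other receptor genes measured, all had lower means with L-dopa over all lesioned rats, with a median difference of -0.24, against 0.01 for all probe sets. The probe sets of these genes were weak, between the 10.56th percentile of signal, that of Htr2b, and the 42.95th. Htr1f, a Gi/o receptor, had the smallest p of these at -0.26 ± 0.12 (SE, adjusted p = 0.56), and Htr2b, a Gq receptor, differed by 1.19 ± 0.57 for L-dopa in sham rats (adjusted p = 0.785). Of 8 measured genes of serotonin synthesis, transport and breakdown, Ddc, the enzyme that turns L-dopa into dopamine and makes serotonin, differed by 0.39 ± 0.12 for L-dopa in sham rats (adjusted p = 0.564). Slc18a2, which loads monoamines into vesicles, differed by -0.49 ± 0.23 for L-dopa in lesioned rats given pramipexole (adjusted p = 0.967).

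Among 11 measured genes of receptor trafficking, 10 had higher means with L-dopa over all lesioned rats, at a median difference of 0.07, against 0.01 for all probe sets. In sham rats 5 of 11 were higher, at a median of -0.001. The receptor kinase gene Grk2 differed by 0.31 ± 0.11 for L-dopa in sham rats (adjusted p = 0.633) and Grk6 by 0.15 ± 0.06 for the lesion (adjusted p = 0.757). In the Gi/o list, 9 of 10 measured genes had higher means for L-dopa in lesioned rats without pramipexole (median difference 0.12, against 0.02 for all probe sets), 4 of 10 in lesioned rats given pramipexole (-0.01, against 0.004) and 10 of 10 in sham rats (0.15, against 0.02). For L-dopa in lesioned rats without pramipexole Gnaz, an inhibitory G protein subunit, differed by 0.25 ± 0.07 (adjusted p = 0.221) and Gnb1, a beta subunit, by 0.15 ± 0.05 (adjusted p = 0.346). In the Gq list Gnaq, the alpha subunit itself, differed by 0.60 ± 0.17 for L-dopa in sham rats (adjusted p = 0.446) and phospholipase gene Plcb1 by -0.11 ± 0.04 for L-dopa over all lesioned rats (adjusted p = 0.515). In the Gs list the protein kinase A genes Prkacb and Prkaca differed by -0.10 ± 0.04 for L-dopa (adjusted p = 0.494) and by -0.24 ± 0.10 for pramipexole over all lesioned rats (adjusted p = 0.754).

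The 9 group means took 4.124% to 36.2% of the variance of a receptor probe set, the highest share being that of Htr5a. These shares were not compared with those of all probe sets. They also include any difference between the number ranges, and Htr5a averaged 4.47 in samples 1 to 37 and 4.85 in samples 38 to 56. Each rat's deviation from its group mean was set against markers of neighbouring tissue. Group here means the 9 group means of the fit, with sham rats given L-dopa alone divided by number range. Over 48 relations (16 probe sets with cortex markers, choroid plexus markers and the gap between 3′ and 5′ control probe sets), 6 had a permutation p under 0.05 after Benjamini-Hochberg adjustment, and all 6 were with the cortex score, the mean of its 12 markers. The share of all probe sets that would pass was not computed, so this count does not set the receptors apart from other genes. Htr2c was lower in rats with a higher cortex score, with Pearson r = -0.55 (n = 56, permutation p = 4e-05, adjusted 0.00192) and Spearman rho = -0.54 (permutation p = 5e-05, adjusted 0.0024). Without rats 22 and 49, which lie farthest out, r was -0.52, and it was -0.59 in samples 1 to 37 and -0.46 in samples 38 to 56. Of the 12 cortex markers, 11 correlated negatively with Htr2c. The weaker Htr2c probe set 1369860_a_at had r = -0.32 and did not pass adjustment (permutation p = 0.0198, adjusted 0.119).

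Htr4, by its strongest probe set, and Htr1d also ran against the cortex score. The weaker Htr4 probe set 1369533_a_at had r = -0.18 and did not pass adjustment. For Htr4 r was -0.47 (permutation p = 0.00215, adjusted 0.0206) and rho -0.40 (permutation p = 0.00494, adjusted 0.0474), with r = -0.39 without the farthest 2 rats, -0.46 in samples 1 to 37 and -0.49 in samples 38 to 56. For Htr1d r was -0.48 (permutation p = 0.00156, adjusted 0.0187) and rho -0.41 (permutation p = 0.0049, adjusted 0.0474), with r = -0.42 without those rats, -0.56 in samples 1 to 37 and -0.26 in samples 38 to 56. Htr1b had r = -0.42 (permutation p = 0.00411, adjusted 0.0329), but its rho of -0.32 did not pass adjustment (permutation p = 0.024, adjusted 0.144). Without the farthest rats its r was -0.34, and it was -0.35 in samples 1 to 37 and -0.57 in samples 38 to 56.

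Htr2a, by its strongest probe set, and Htr1a were higher in rats with a higher cortex score. The weaker Htr2a probe sets 1369124_at, 1387752_s_at and 1369894_at had r = 0.06, 0.08 and -0.18 with the score. Htr2a had r = 0.49 (permutation p = 0.00143, adjusted 0.0187) and rho = 0.46 (permutation p = 0.0016, adjusted 0.0256), with r = 0.45 without the farthest 2 rats, 0.59 in samples 1 to 37 and 0.25 in samples 38 to 56. Htr1a had r = 0.50 (permutation p = 0.00021, adjusted 0.00504) and rho = 0.50 (permutation p = 0.00031, adjusted 0.00744), with r = 0.44 without those rats, 0.43 in samples 1 to 37 and 0.66 in samples 38 to 56. All 12 cortex markers correlated positively with Htr1a and 10 of 12 with Htr2a. Negative correlations were found for 11 of 12 with Htr4, 10 of 12 with Htr1d and 12 of 12 with Htr1b. Htr5a, Htr6 and Htr7 showed r of 0.15, -0.12 and 0.003 with the score. Htr1a and Htr2a are both known from cortical pyramidal neurons, and the source of these relations was not tested.

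Between the receptors themselves, 36 pairs of strongest probe sets were compared and 5 passed adjustment by Pearson r. Htr2a and Htr4 were opposed, with r = -0.57 (permutation p = 6e-05, adjusted 0.00216) and rho = -0.51 (permutation p = 0.00028, adjusted 0.0101). Their r was -0.53 without the farthest 2 rats, -0.54 in samples 1 to 37 and -0.64 in samples 38 to 56. The weaker Htr2a probe sets 1369124_at, 1387752_s_at and 1369894_at had r = -0.08, -0.04 and 0.02 with this Htr4 probe set. Htr2a 1369125_at had r = 0.01 with the weaker Htr4 probe set 1369533_a_at. Htr1d and Htr2c moved together, with r = 0.53 (permutation p = 0.00016, adjusted 0.00288) and rho = 0.42 (permutation p = 0.00337, adjusted 0.0446). Their r was 0.44 without the farthest 2 rats, 0.62 in samples 1 to 37 and 0.22 in samples 38 to 56. With the weaker Htr2c probe set 1369860_a_at, r was 0.32 for Htr1d.

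The other 3 pairs were weaker. Htr6 and Htr7 had r = 0.45 (permutation p = 0.00195, adjusted 0.0176) and rho = 0.41 (permutation p = 0.00447, adjusted 0.0446), with r = 0.40 without the farthest 2 rats, 0.53 in samples 1 to 37 and 0.28 in samples 38 to 56. Htr5a and Htr7 had r = 0.39 (permutation p = 0.00195, adjusted 0.0176) and rho = 0.37 (permutation p = 0.00496, adjusted 0.0446), with r = 0.43 without the farthest 2 rats, 0.50 in samples 1 to 37 and 0.26 in samples 38 to 56. Htr1a and Htr4 had r = -0.44 (permutation p = 0.00367, adjusted 0.0264; without the farthest 2 rats -0.39, -0.43 in samples 1 to 37 and -0.46 in samples 38 to 56) and a rho of -0.36 that did not pass adjustment (permutation p = 0.0109, adjusted 0.0785). All these values come from the same arrays, so the genes of a pair share their RNA samples. The share of pairs of other probe sets that would pass was not computed. Signals were low for Htr1a, Htr5a, Htr6 and Htr7, at the 25.51th, 34.43th, 11.11th and 33.9th percentile. With the weaker Htr7 probe sets 1387466_a_at and 1371290_a_at, r was 0.20 and -0.01 for Htr6 and -0.14 and 0.20 for Htr5a. With the weaker Htr4 probe set 1369533_a_at, r was 0.08 for Htr1a.

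**Figure D4:**
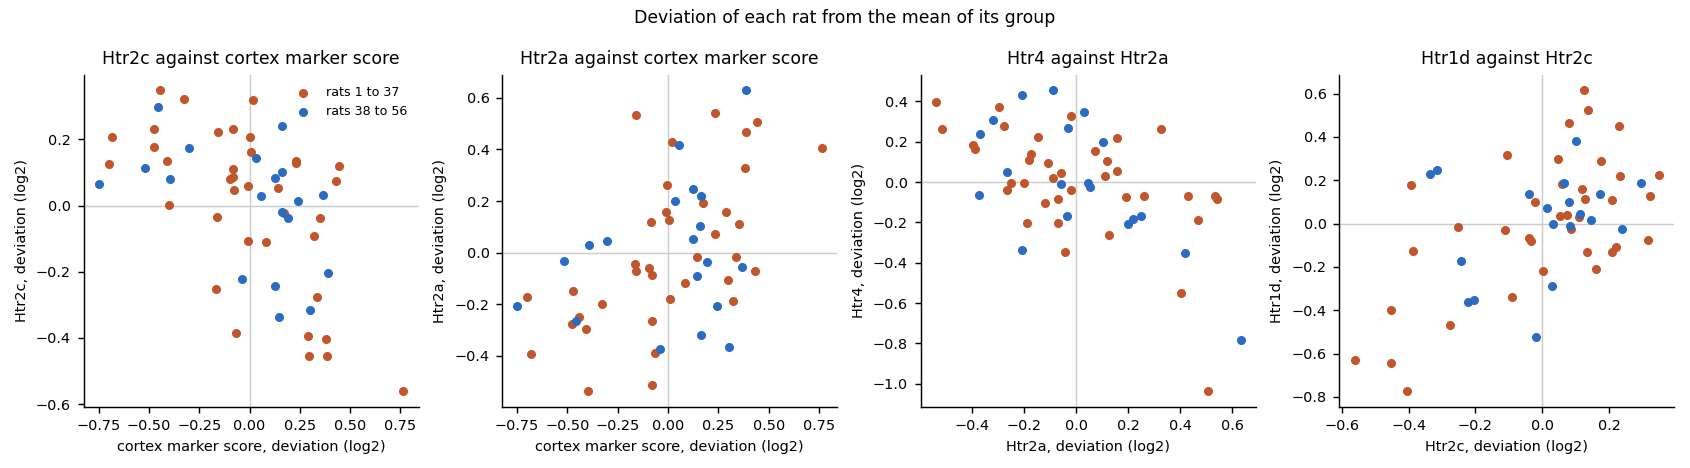
Deviation of each of 56 rats from its group mean, in log2, orange for samples 1 to 37 and blue for samples 38 to 56. The panels set Htr2c and Htr2a against the mean of 12 cortex markers (r = -0.55 and 0.49), Htr4 against Htr2a (r = -0.57) and Htr1d against Htr2c (r = 0.53).

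Correlations of the same deviations with lists of striatal cell markers are given as a description, for the strongest probe set of each gene and without a p. Htr2c followed the markers of D1 medium spiny neurons, with r = 0.78 to their mean, 6 of 8 markers positive 0.81 to Drd1 itself, the D1 dopamine receptor gene, and -0.30 to Eya1, the lowest of that list. It also followed the D2 list (r = 0.59, 5 of 5 positive) and had a lower r with the markers shared by all medium spiny neurons (0.30, 6 of 6 positive), and the D1 and D2 lists correlated with each other at 0.82. Htr1d followed the D2 list (r = 0.70, 5 of 5 positive, 0.65 with the adenosine receptor gene Adora2a) and the D1 list (r = 0.62). Htr4 followed these shared markers (r = 0.58, 6 of 6 positive, 0.58 with Foxp1) and the D2 list (r = 0.50). Htr2a and Htr1a ran against the shared markers, with r = -0.63 and -0.47 and 6 of 6 markers negative for either. The cortex score itself ran against the shared, D1 and D2 lists, with r = -0.69, -0.62 and -0.74. Choroid plexus markers had r = 0.17 with Htr2c, and 0.02 without the 2 plexus-rich rats 7 and 27.

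**Figure D5:**
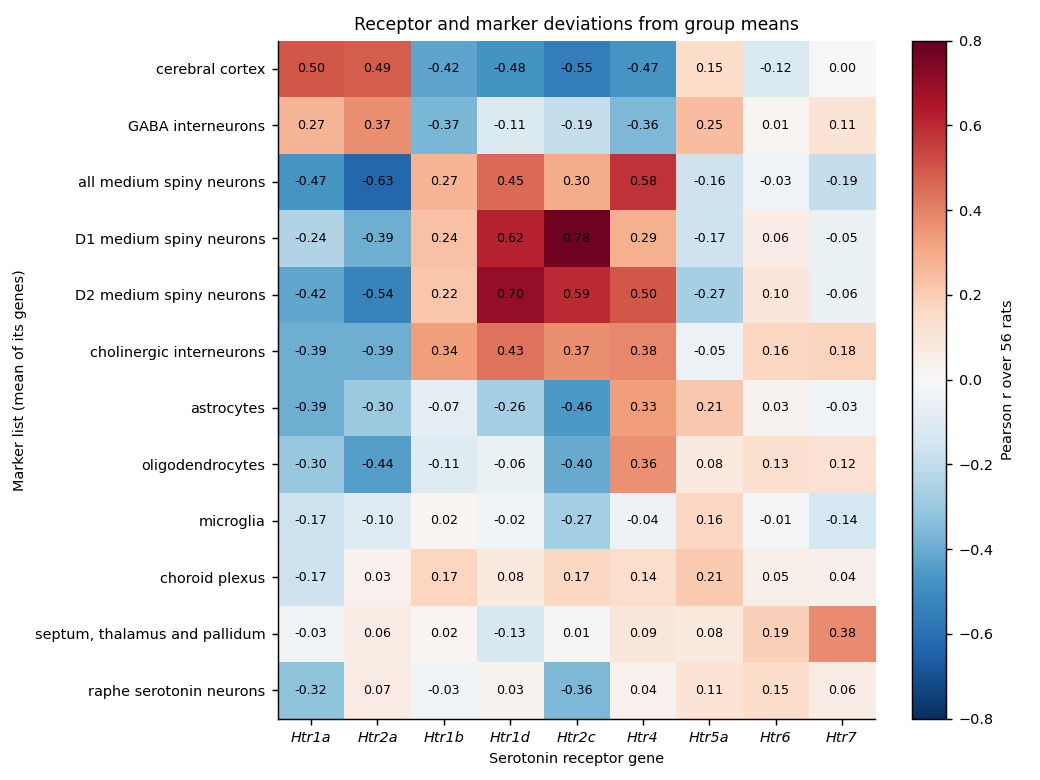
Pearson r over 56 rats between the deviation of each receptor gene (columns, strongest probe set) and the mean deviation of each of 12 marker lists (rows), with red for positive and blue for negative values. Htr2c with D1 medium spiny neurons (0.78) and Htr1d with D2 medium spiny neurons (0.70) are the highest, and Htr2a with all medium spiny neurons (-0.63) the lowest.

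The probe sets most like each receptor were taken by Pearson r of deviations over 56 rats, among those above the 40th percentile of signal. For Htr2c they were Cntnap2 (r = 0.89), an axonal adhesion protein gene, Rab40b (0.88) and Synpr (0.87), a synaptic vesicle protein gene. For Htr2a they were Mapk8 (0.77), a stress kinase gene, Npy1r (0.76), a neuropeptide Y receptor gene, and Usp46 (0.73). For Htr4 they were Trak2 (0.70), a mitochondrial transport adaptor gene, Meis1 (0.69), a transcription factor gene, and Slc5a11 (0.65). For Htr1d they were Tomm70 (0.71), a mitochondrial import receptor gene, Gnal (0.69), the stimulatory G protein subunit of striatal neurons, and Ajap1 (0.69).

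The likeness was weaker for the receptors of low signal. Htr1a had Pld3 (0.62), Ctnna2 (0.60) and Gabra5 (0.60), the last a GABA receptor subunit gene. Htr1b had Unc13c (0.55), Krtcap2 (0.51) and Ints6 (0.50), and Htr5a had Ifi44 (0.53), Epn2 (0.50) and Rngtt (0.49). Htr6 had Brd7 (0.51), Psmg4 (0.51) and Slc35a5 (0.49), and Htr7 had Pomk (0.52), Rbm15b (0.48) and Mrpl55 (0.47).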

How the data were processed

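Total RNA (100 ng) from the dorsal striatum of each rat was labelled with a 3' IVT kit and hybridised to an Affymetrix Rat230_2 array, per the labels' protocols. The deposited values are log2 signals made with MAS5, per the submitters' processing notes, whose version is not given in the sources used here. On every array the unlogged values have a trimmed mean (2% off each end) of 150.042 to 150.046, so the arrays were on a common scale. They were used as deposited.

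All 31042 probe sets other than 57 controls were fitted with limma 3.58.1 in R 4.3.3 (lmFit and eBayes, 9 means: 8 title groups, with sham L-dopa saline divided after sample 37), with no filter on low signal. P-values are two-sided and adjusted by Benjamini-Hochberg within each of 13 comparisons. The fit was tested on simulated data: with 200 of 31042 probe sets changed, pramipexole in lesioned rats given L-dopa recovered 44% of changes of 0.5 and 72% of changes of 1 (log2). The simulated noise was normal and independent, and the changed probe sets were drawn from the whole array. These shares therefore do not give the power for the receptor probe sets. Detection calls were not used here. Precision is bounded by 7 arrays a group. The labels do not say more of the replicates than that each is 1 rat.

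Symbols came from the platform annotation (20826 probe sets with 1 symbol, 436 with several, 9780 with none). The members, 6 pathway lists and 12 marker lists were chosen with earlier results of these data known. Named genes are all members, the 2 pathway genes of smallest p per list (0 were called), and the 3 probe sets most like each member. Genes of the marker lists (Drd1, Drd2, Penk, Slc6a4, Fev, Tbr1, Sv2b, Nptx1, Lamp5, Ttr, Adora2a, Foxp1, Eya1) are named outside this rule, to check the tissue or as the highest or lowest of a list, and were chosen after their values were seen. A listed gene was read from its probe set with the highest mean. Relations used 100000 permutations within the 9 groups (Python 3.11.15, scipy 1.17.1). Alternatives were quantile normalization, signal filters, an offset of 16, array weights, a trended robust prior, fewer arrays, undivided groups, 3 covariates and leaving out each rat.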

Additional observations from a re-analysis of the deposited data

Results flagged for a closer look

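In 128 sets of 7 rats (16 probe sets in 8 groups), 11 held a rat far from the other 6 by Dixon's criterion at 95%, where chance gives about 1 in 20, or 6.4. These were 11 different rats. Among the stronger probe sets, Htr2c was 10.12 in rat 22, lesioned and given saline only, against 10.69 to 10.86 in the other rats of its group, and the cortex score of that rat deviated by 0.76. Htr4 was 5.251 in rat 20, lesioned and given pramipexole alone, against 6.22 to 6.66, and its cortex score deviated by 0.44. Htr1d was 5.063 in rat 1, lesioned and given both drugs, against 5.631 to 6.001. Htr5a was 3.917 in rat 30, a sham rat given both drugs, against 4.442 to 4.833.

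The other 7 were in weak probe sets. Htr2a 1369124_at was 3.556 in rat 13, lesioned and given L-dopa alone, Htr2a 1387752_s_at was 3.109 in rat 29, a sham rat given both drugs, and 0.8528 in rat 54, a sham rat given saline only, and Htr2a 1369894_at was 2.129 in rat 49, a sham rat given pramipexole alone. Htr4 1369533_a_at was 0.3704 in rat 17, lesioned and given pramipexole alone, and 1.956 in rat 39, a sham rat given L-dopa alone. Htr7 1387466_a_at was 2.845 in rat 52, a sham rat given saline only.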

How the results depend on the processing

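The count of called receptor probe sets was 0 in all 13 comparisons under each of the 386 combinations with an alternative, and the smallest adjusted p reached was 0.196 (Htr1d, L-dopa in lesioned rats without pramipexole, without rat 22). Of 5851 receptor differences recomputed, 360 changed sign, 0 of them called. Over all probe sets, 0 were called for L-dopa in lesioned rats without pramipexole, against 7 above the 60th percentile of signal and up to 2 without 1 rat. For pramipexole in lesioned rats given L-dopa, 0 stood against 4 above that percentile and up to 7 without 1 rat. For pramipexole in sham rats given L-dopa, 2 stood against 0 to 6 (6 with undivided groups) and 2 to 28 without 1 rat. For L-dopa over all lesioned rats, 1 stood against 0 to 1, and 1 to 3 without 1 rat. Quantile normalization gave 1 for pramipexole over all lesioned rats and the cortex covariate 1 for pramipexole in sham rats without L-dopa, against 0 for either. Without 1 rat, up to 1 was called for the lesion, for pramipexole over all lesioned rats and for pramipexole in lesioned rats without L-dopa, and up to 2 for the difference of the L-dopa effects, against 0 for each. The cause was not tested. No paired analysis was possible because rat numbers are not shared between groups. Signals below the 40th percentile, which held for all probe sets of Htr1a, Htr1b, Htr5a, Htr6 and Htr7, for 3 of 4 of Htr2a and for 1 of 2 of Htr4, limit what could be seen.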
